A study of Mus musculus with 12 samples.

Results

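Mouse embryonic fibroblasts without the telomerase RNA (mTR KO) were compared with wild-type fibroblasts of the same line (mTR WT). The comparison rests on 6 of the 12 arrays of the series, those titled mTR KO G1 1 to 3 and mTR WT 1 to 3, chosen by title alone. Each array was hybridised with RNA of 1 culture, so there were 3 cultures per group. The question, as the series title states it, is how loss of mTR and of mTERT affects gene expression. All cultures came from male C57BL/6J embryos of embryonic day 12.5 to 14.5, were grown without treatment and were harvested at passage 5. The knockouts were of generation G1, the first without telomerase, and the design text describes knockouts and wild types as littermates within a set. The remaining 6 arrays, 3 mTERT KO (fibroblasts without telomerase reverse transcriptase, also G1) and 3 mTERT WT, served here only as an outside reference for which mTR group lay apart. No source used here says how many embryos went into a culture, so the p-values measure the spread between these cultures.

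Telomerase adds telomeric repeats to chromosome ends. Its RNA, encoded by Terc (mTR in the mouse), carries the template, and its reverse transcriptase, encoded by Tert, copies it. Mice lacking Terc in the first generation still inherit long telomeres from their parents, and the effects of telomere loss are known to appear over later generations. Embryonic fibroblasts are a mixed mesenchymal population whose makeup depends on the embryo and on the dissection, and such cultures often carry some macrophages.

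Values are log2 signals as deposited, and differences are mTR KO minus mTR WT on that scale, ± the standard error from limma (n = 3 cultures per group). A difference of 1 is a factor of 2. Values of a group are always given in the order of cultures 1, 2 and 3. The background level of an array was taken as the 95th percentile of its 1035 olfactory receptor probe sets, which lay between 4.93 and 5.03 on the 6 arrays. All 15 fibroblast markers lay above it, with a mean of 10.50, 10.39 and 10.37 in the wild types and 10.90, 10.31 and 10.33 in the knockouts. Of the T, B and NK cell, neutrophil and mast cell, and erythroid markers, 0 of 11, 0 of 14 and 0 of 9 passed it. Correlations between the 6 arrays ran from 0.984 to 0.9945. The culture mTR KO 1 stood farthest from its group: its mean distance to the other mTR KO cultures was 0.234, against 0.141 to 0.207 for the others within their groups. Along the first principal component, with 46.7% of the variance, it lay at 36.85, and mTR KO 3 lay at −18.03, beside mTR WT 1 at −17.88.

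The arrays carried no mark of the missing RNA gene itself. Terc read 4.65, 4.73 and 4.94 in the wild types and 4.50, 4.73 and 4.57 in the knockouts, a difference of −0.17 ± 0.10 (limma, adjusted p = 0.83; exact two-sided permutation p = 0.2, where 0.1 is the smallest that 3 against 3 can give). The groups overlapped, and each of the 6 values lay below the background level of its array, also in the wild types, so this probe set cannot check the genotype. Tert read 5.79, 5.70 and 5.66 in the wild types and 5.80, 5.69 and 5.80 in the knockouts, with a difference of 0.05 ± 0.07. Of the other genes for telomerase subunits and assembly factors, Nop10, a protein of the RNA-binding core, differed most clearly. It read 8.19, 8.32 and 8.31 in the wild types and 7.71, 7.96 and 8.19 in the knockouts, and all 3 knockout values lay at or below the lowest wild-type value. The 14 measured members of this list had 6 higher and 8 lower values in mTR KO, and a median difference of −0.03.

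No probe set passed the test between mTR KO and mTR WT cultures. Of 28853 probe sets, 0 (0%) passed an adjusted p of 0.05 with limma, and the smallest adjusted p was 0.83, so no mTR KO minus mTR WT difference given below has a smaller one. An unadjusted p below 0.05 was found for 1531 probe sets (5.31%), 695 higher (2.41%) and 836 lower (2.9%). The 3 knockout and 3 wild-type values did not overlap for 3290 probe sets (11.4%), 1538 higher (5.33%) and 1752 lower (6.07%). Among 12333 genes above background, 43 had group means at least 1 apart on the log2 scale, 16 higher and 27 lower in mTR KO, and for 12 of these the groups did not overlap.

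The clearest lower values in mTR KO cultures belonged to genes of very different roles. Rasal2, a Ras GTPase-activating protein, read 8.05, 8.05 and 8.13 in the wild types and 7.56, 7.57 and 7.45 in the knockouts, and differed by −0.55 ± 0.07. Pdk4, the kinase that turns off pyruvate dehydrogenase, read 7.11, 6.92 and 7.20 in the wild types and 6.31, 6.06 and 6.38 in the knockouts (−0.83 ± 0.11). Ano1, a calcium-activated chloride channel, read 6.04, 5.69 and 6.01 in the wild types and 4.55, 4.97 and 5.07 in the knockouts (−1.05 ± 0.16). In each case the lowest wild-type culture stood above the highest knockout culture, and all 3 mTR WT values also exceeded the 6 mTERT values. Ano1 was near background in mTR KO cultures, with 2 of 3 values below the mean level of 4.98.

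Sfn, which encodes the 14-3-3 sigma protein, had the largest difference among the 15 genes with the lowest moderated t. It read 7.80, 8.14 and 8.35 in the wild types and 6.60, 6.58 and 7.10 in the knockouts, a difference of −1.34 ± 0.18. The groups did not overlap, but the mTERT cultures, between 6.28 and 8.11, spanned most of both. Gja1, the gap junction protein connexin 43, read 10.38, 10.54 and 10.88 in the wild types and 9.50, 9.66 and 9.84 in the knockouts (−0.93 ± 0.15), and lay between 8.91 and 10.51 in mTERT cultures. Fgfr2, an FGF receptor, read 7.63, 7.32 and 7.32 in the wild types and 6.76, 6.59 and 6.87 in the knockouts (−0.69 ± 0.12). The other genes of this set were Cyp26b1 (−0.56 ± 0.07), which degrades retinoic acid, the transcription factors Mecom (−0.74 ± 0.12) and Foxo1 (−0.64 ± 0.11), the latent TGF-beta binding protein Ltbp3 (−0.41 ± 0.07), Smoc2 (−1.20 ± 0.20), Stard10 (−0.47), Chn1 (−0.51), Phtf1os (−0.45) and Kcnq5 (−0.53). Smoc2 is a secreted matricellular protein, and its values are given with the matrix genes.

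Further genes with separate groups had differences of 1 or more on the log2 scale, the largest that of Col10a1. Col10a1, the collagen of hypertrophic cartilage, read 9.87, 10.05 and 9.30 in the wild types and 8.76, 5.32 and 7.88 in the knockouts. The wild types were within 1 log2 unit of each other, while the knockouts were spread over more than 3 units, so the difference of −2.42 ± 0.79 carried a large error. Mgp, a vitamin K dependent protein that keeps soft tissue from calcifying, read 10.17, 10.48 and 9.94 in the wild types and 8.77, 9.05 and 9.46 in the knockouts (−1.10 ± 0.20), and Prg4, the joint lubricant lubricin, read 5.74, 5.35 and 6.18 in the wild types and 4.44, 4.65 and 4.93 in the knockouts (−1.08 ± 0.22). The groups did not overlap for either gene, but the 3 knockout values of Prg4 lay below the background level of their arrays. Nt5e, the ectonucleotidase CD73, differed by −1.05 ± 0.23, and Rgs4, a regulator of G protein signalling, by −1.07 ± 0.35.

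Among the genes with the highest moderated t or separate groups, these were higher in mTR KO cultures. Irx1, a homeobox factor, read 6.23, 6.24 and 5.89 in the wild types and 7.09, 6.73 and 6.88 in the knockouts (0.78 ± 0.13). Eps8, an actin regulator downstream of growth factor receptors, read 6.40, 5.89 and 5.95 in the wild types and 7.51, 6.84 and 6.62 in the knockouts (0.91 ± 0.24). The 3 knockouts lay above the 3 wild types for both genes, yet mTERT cultures reached 7.52 for Irx1 and 7.65 for Eps8, above every mTR KO culture. Crabp1, a cytosolic retinoic acid binding protein, read 7.65, 8.19 and 7.68 in the wild types and 8.96, 8.38 and 8.43 in the knockouts (0.75 ± 0.20).

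Other genes with a high moderated t had smaller differences. Cd2ap, an adaptor between membrane and actin, read 8.37, 8.24 and 8.31 in the wild types and 8.73, 8.81 and 8.64 in the knockouts (0.42 ± 0.08), and its mTR WT values lay below all 9 other cultures. Cep135, a centriole protein, differed by 0.40 ± 0.08, Dock11, which activates the GTPase Cdc42, by 0.42 ± 0.09, and Smc5, part of the SMC5/6 complex that acts in DNA repair, by 0.29 ± 0.07. Man2a1, a Golgi mannosidase, differed by 0.54 ± 0.12 and Tdrkh, a Tudor domain protein, by 0.56 ± 0.14. Over the 15 genes with the highest moderated t, differences ran from 0.29 to 0.78, against −1.34 to −0.41 for the 15 with the lowest.

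**Figure D1:**
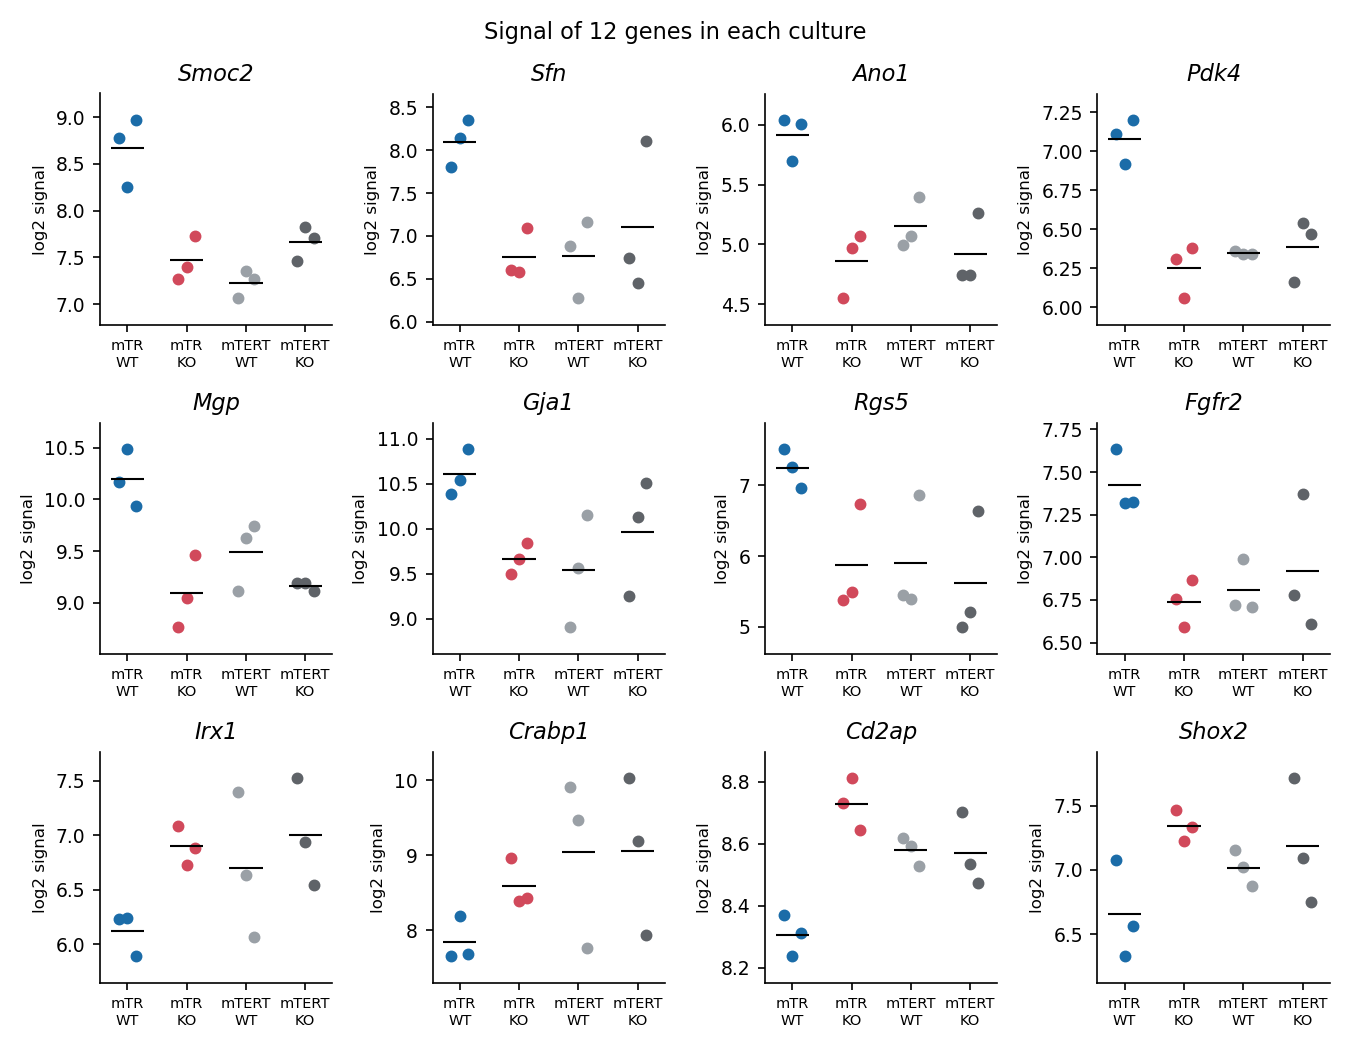
Log2 signal of 12 genes in each culture, in 1 panel per gene; the horizontal axis gives the group (mTR WT, mTR KO, mTERT WT, mTERT KO), each point is 1 culture and each line a group mean. Smoc2, Ano1 and Pdk4 show 3 mTR WT points above all others, while for Sfn, Gja1 and Irx1 the mTERT points overlap those of both mTR groups.

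The mTERT cultures, of the other line, gave a reference level, and whether it holds for mTR cultures was not tested. Both mTR groups could lie away from it: for Clca3a1 the difference was −1.32 for mTR KO and −1.76 for mTR WT. The mTR WT group was also tighter. Among genes above background, the median standard deviation was 0.099 in mTR WT and 0.128 in mTR KO. Its part in the counts below was not tested. All 3 mTR WT values stood above all 9 other cultures for 391 probe sets (1.36%) and below them for 242 (0.839%). All 3 mTR KO values stood above all 9 others for 80 probe sets (0.277%) and below them for 116 (0.402%). Among the 15 genes with the lowest t, the mTR WT values were above all others for 11 and the mTR KO values below all others for 0. Among the 15 with the highest t, the mTR WT values were below all others for 5 and the mTR KO values above all others for 1, Lrtm1.

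Against the mean of both mTERT groups, in a limma fit of all 12 arrays, 16 probe sets (0.0555%) passed for mTR WT, 13 higher (0.0451%) and 3 lower (0.0104%), and 2519 (8.73%) had an unadjusted p below 0.05. For mTR KO against the same mTERT cultures, 0 passed and 1000 (3.47%) had an unadjusted p below 0.05. Both contrasts share the mTERT cultures, and their difference is the mTR comparison itself, in which no probe set passed. The 16 calls depended on single cultures: 0 were left without mTR WT 1, mTERT KO 2 or mTERT KO 3, 1 without mTR WT 3 or mTERT KO 1, 3, 7 and 10 without mTERT WT 2, 3 and 1, and 4 without mTR KO 2. Without mTR KO 1 there were 26. For mTR KO, 7 probe sets passed without mTR WT 2. The difference between the mTR and the mTERT knockout effects passed for 0 probe sets (0%) by limma, where an unadjusted p below 0.05 was found for 965 (3.34%).

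Of the 16 probe sets called in mTR WT cultures, 13 had 1 named gene. Higher than in mTERT cultures were Smoc2 (by 1.22, adjusted p = 0.0293), Gldn, an adhesion protein of nodes of Ranvier (1.14), Srpx2, a secreted sushi-domain protein (1.07), Hoxa13, a factor of the distal limb (0.98), Tmeff2, a transmembrane follistatin-like protein (0.84), Tiam2, a Rac exchange factor (0.73), Pdk4 (0.71), Ahrr, the aryl hydrocarbon receptor repressor (0.67), Ppm1l (0.63), Scube3 (0.60) and Dip2c (0.44). Lower were Nrk, a kinase of placenta and embryo (−1.23), and Raet1d, a ligand of the NKG2D receptor (−1.19), whose near-identical Raet1 copies make its probe set uncertain. The adjusted p of these 13 genes lay between 0.0293 and 0.0449, and the other 3 probe sets had several genes or none. In the mTR comparison itself, differences were −1.20 for Smoc2, −0.54 for Gldn, −0.40 for Srpx2, −0.62 for Hoxa13, −0.58 for Tmeff2, 0.38 for Nrk and 0.46 for Raet1d. Raet1d read 7.49, 7.56 and 7.15 in the wild types, 7.89, 7.88 and 7.79 in the knockouts and between 8.31 and 8.83 in mTERT cultures, so that mTR KO lay between mTR WT and the mTERT cultures.

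Genes for which mTR KO stood apart were few and their steps small. Timm22, a channel of the mitochondrial inner membrane, read 6.98, 6.88 and 6.81 in the wild types and 6.53, 6.57 and 6.54 in the knockouts, with mTERT cultures between 6.64 and 6.83 (−0.34 ± 0.07). Emilin1, an elastic fibre glycoprotein, read 8.62, 8.69 and 8.79 in the wild types and 8.41, 8.28 and 8.39 in the knockouts and lay between 8.49 and 8.82 in mTERT cultures (−0.34 ± 0.08). Eci1, an enzyme of fatty acid oxidation, differed by −0.25 ± 0.07 and Slc2a10, a glucose transporter family member, by −0.31 ± 0.10. On the higher side, Lrtm1, a leucine-rich repeat membrane protein, read 5.00, 5.00 and 4.99 in the wild types and 5.67, 5.61 and 5.26 in the knockouts, and at most 5.12 in any mTERT culture (0.52 ± 0.11). Its wild-type values lay close to background. Xylb, a xylulokinase homologue, read 4.92, 4.99 and 4.90 in the wild types and 5.13, 5.16 and 5.18 in the knockouts, close to background throughout (0.22 ± 0.06).

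The microRNA gene Mir181d also belongs here: it read 6.17, 5.90 and 6.24 in the wild types and 6.36, 6.35 and 6.35 in the knockouts, and lay between 6.10 and 6.30 in mTERT cultures (0.26 ± 0.10). Its mature sequences are shown, from RefSeq (GRCm38.p6), because the probe set does not separate the arms or the longer precursor RNA. Capitals mark the seed, bases 2 to 8, which decides which transcripts a microRNA pairs with.
mmu-miR-181d-5p (chr8:84178759-84178781, minus strand): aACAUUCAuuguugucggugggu
mmu-miR-181d-3p (chr8:84178720-84178740, minus strand): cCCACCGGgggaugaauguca

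**Figure D2:**
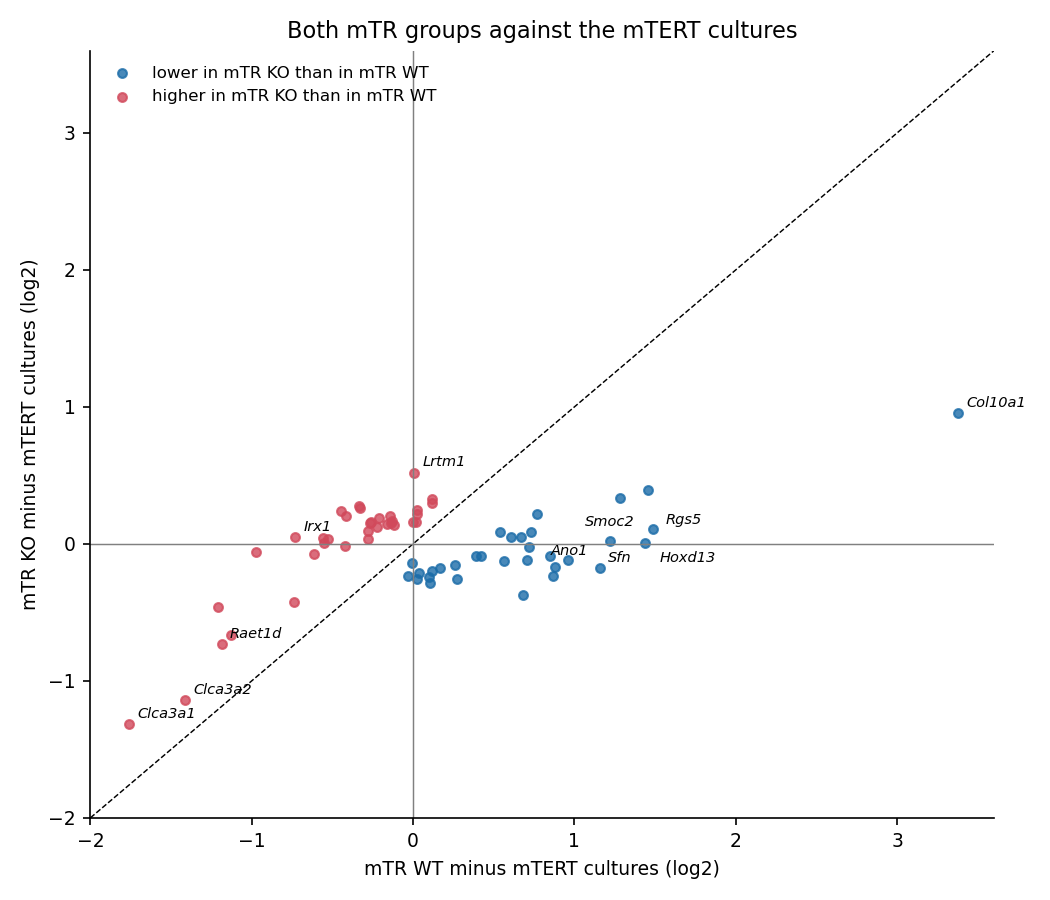
Difference of mTR KO (vertical axis) and of mTR WT (horizontal axis) from the mean of the mTERT groups in log2 units, 1 point per gene, with the dashed line at equal values. Smoc2 lies at 1.22 for mTR WT and near 0 for mTR KO; both axes share the mTERT cultures, so the spread along the dashed line is not a result.

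Macrophage markers and interferon-stimulated genes had the largest medians of the 42 lists, and these moved with single cultures. All 22 macrophage markers were higher in mTR KO on average (50.3% of all probe sets were), with a median difference of 0.71 against 0.001 over all probe sets. 0 of the 22 had an unadjusted p below 0.05, and for 0 did the groups separate. The mean log2 signal over the list stood at 6.38, 7.82 and 8.22 in the wild types and at 8.97, 8.37 and 7.14 in the knockouts. mTR KO 1 and mTR KO 2 lay above every wild type, and mTR KO 3 lay below mTR WT 2 and mTR WT 3. Mrc1, the mannose receptor, read 5.89, 8.18 and 8.49 in the wild types and 10.69, 9.01 and 7.14 in the knockouts (1.43 ± 0.99), a span of more than 4 log2 units over the 6 cultures. Msr1, a scavenger receptor, differed by 0.99 ± 0.65, Fcgr1, an Fc receptor, by 0.69 ± 0.46, and Ptprc, the leukocyte antigen CD45, by 0.81 ± 0.58. The median was 0.11 without mTR WT 1 and 1.22 without mTR KO 3. In bulk RNA fewer cells of a type and less RNA per cell cannot be told apart.

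Interferon-stimulated genes, which are switched on by type I interferon, ran in parallel in the mTR cultures. All 25 measured members were higher in mTR KO, and 18 of the 25 lay above background. An unadjusted p below 0.05 was found for 5 (2.41% of all probe sets), and 2 had separate groups (5.33% of all). The median was 0.63, and it ranged from 0.32 without mTR KO 1 to 1.01 without mTR KO 3. The mean log2 signal over the list stood at 5.60, 6.45 and 6.09 in the wild types and at 7.25, 6.85 and 5.83 in the knockouts. Sorted by this mean, the mTR cultures stood in the macrophage order, except that mTR WT 2 and mTR WT 3 changed places. The mTERT cultures did not run in parallel. Their interferon mean stood at 6.55, 7.49 and 6.13 in mTERT WT and at 6.35, 7.41 and 5.96 in mTERT KO. Their macrophage mean stood at 7.29, 8.53 and 8.81 in mTERT WT and at 7.01, 8.69 and 8.46 in mTERT KO. The part of macrophages in the interferon values was not tested. Against the mTERT cultures the list's median was 0.00 for mTR KO and −0.62 for mTR WT.

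Among the sensors and effectors, Eif2ak2, the kinase that halts translation on double-stranded RNA, read 7.66, 8.52 and 8.25 in the wild types and 9.25, 9.06 and 8.29 in the knockouts (0.73 ± 0.30). Oasl1, a relative of the oligoadenylate synthetases, read 5.47, 5.43 and 5.58 in the wild types and 5.87, 5.78 and 5.60 in the knockouts (0.26 ± 0.09). Oas3, one of these synthetases, read 4.60, 4.53 and 4.54 in the wild types and 5.22, 5.07 and 4.77 in the knockouts (0.47 ± 0.12), with all wild types and 1 knockout below background. Rsad2, the antiviral protein viperin, read 4.41, 4.58 and 4.65 in the wild types and 5.39, 5.03 and 4.65 in the knockouts (0.48 ± 0.18). All its wild-type values and that of mTR KO 3 lay below background. Ifit1, which binds foreign RNA ends, had one of the widest ranges of all genes: it read 4.72, 6.29 and 5.56 in the wild types and 8.45, 7.47 and 5.01 in the knockouts. mTR KO 1 and mTR KO 2 were the highest of the 6 cultures for each of these 5 genes, and mTR KO 3 lay within or next to the wild-type range.

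Most, but not all, promoters of this list that could be looked up carry the letters of the interferon-stimulated response element. In the RefSeq promoter table (GRCm38.p6, 250 bases before to 50 after each start), 11 of the 17 list members present held GAAA, then any 2 bases, then GAAA, on either strand (64.7%), against 3.99% of 27025 genes. Stretches of 60 bases around it are shown for Ifit1, Oas3 and Rsad2, in the direction of the gene and with 1 match each in capitals; the Ifit1 stretch holds another match in lower case. A match is a description of the letters only.
Ifit1 (chr19:34640760-34640819, plus strand): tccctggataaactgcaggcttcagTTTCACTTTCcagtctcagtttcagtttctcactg
Oas3 (chr5:120777700-120777759, minus strand): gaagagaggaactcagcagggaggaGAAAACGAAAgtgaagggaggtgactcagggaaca
Rsad2 (chr12:26456538-26456597, minus strand): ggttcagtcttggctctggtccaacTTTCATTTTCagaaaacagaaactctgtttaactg

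Antigen presentation genes had a median of 0.16 with 11 of 14 higher, which was 0.07 without mTR KO 1 and 0.31 without mTR KO 3. Nlrc5, the transactivator of MHC class I genes, read 7.39, 7.37 and 7.20 in the wild types and 7.55, 7.67 and 7.52 in the knockouts (0.26 ± 0.08), and its groups did not overlap. Psmb9, an immunoproteasome subunit, differed by 0.43 ± 0.19, Tap1, the peptide transporter, by 0.47 ± 0.31, and H2-Q4 by 0.69 ± 0.47, a class I gene with close copies whose probe set is therefore uncertain. Without mTR KO 1 and without mTR KO 3 the difference was 0.13 and 0.77 for Tap1, and 0.15 and 1.17 for H2-Q4. NF-kB pathway and cytokine genes were split, 16 higher and 11 lower, with a median of 0.08 and 0 with an unadjusted p below 0.05. Vcam1, a leukocyte adhesion receptor (0.30 ± 0.15), and Tnf (0.60 ± 0.34) were among them.

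**Figure D3:**
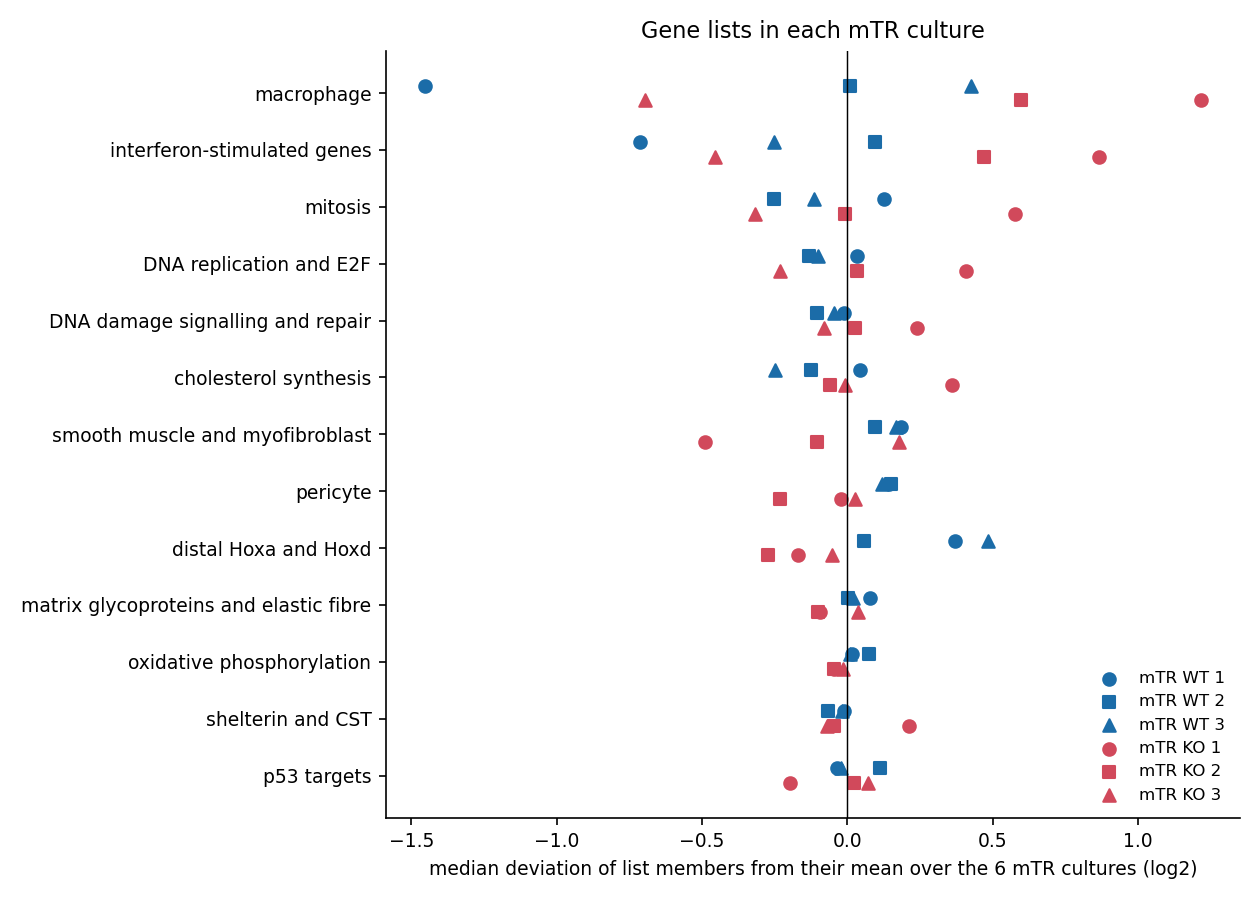
Median deviation of the members of 13 gene lists in each mTR culture from each gene's mean over the 6 cultures, in log2 units, with 1 point per culture and list. Macrophage and interferon lists are widest, with mTR KO 1 highest and mTR WT 1 lowest, and the mitosis list has mTR KO 1 highest and mTR KO 3 lowest.

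Genes of the cell cycle and of genome maintenance were higher in mTR KO cultures in most cases, by small amounts carried by mTR KO 1. Of 27 mitosis genes 25 were higher, 0 had an unadjusted p below 0.05, and the median was 0.15. The mean log2 signal over the list stood at 7.79, 7.43 and 7.58 in the wild types and at 8.26, 7.69 and 7.37 in the knockouts. Mki67, the proliferation antigen Ki-67, read 8.17, 7.78 and 8.05 in the wild types and 9.19, 8.42 and 7.78 in the knockouts (0.46 ± 0.32), and Cenpe, a kinetochore motor, read 7.02, 6.60 and 7.05 in the wild types and 8.02, 7.43 and 6.79 in the knockouts (0.52 ± 0.29). In both, mTR KO 1 was the highest of the 6 cultures and mTR KO 3 at or near the lowest. Without mTR KO 1 the median was −0.09, and without mTR KO 3 it was 0.34. Replication and E2F genes showed 27 of 29 higher, with a median of 0.13 that was −0.01 without mTR KO 1. E2f2, an activating E2F factor, read 4.96, 4.76 and 4.76 in the wild types and 5.16, 5.16 and 4.96 in the knockouts (0.27 ± 0.09), close to background.

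The cell cycle homology region TTTGAA, a promoter element of genes expressed in mitosis, was present in 17 of the 23 mitosis genes in the promoter table (73.9%), against 20.2% of all genes. The promoter of Mki67 is shown with 1 of its 2 matches in capitals, since its per-culture values are those given above.
Mki67 (chr7:135716463-135716522, minus strand): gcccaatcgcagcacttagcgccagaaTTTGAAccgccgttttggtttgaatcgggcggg

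DNA damage signalling and repair genes had 27 of 32 higher and 5 lower, with a median of 0.12; it was 0.00 without mTR KO 1, and 0 members had an unadjusted p below 0.05. Blm, a helicase of recombination, read 6.49, 6.42 and 6.46 in the wild types and 7.17, 6.68 and 6.49 in the knockouts (0.33 ± 0.17). Mre11a, a nuclease of double-strand break repair, differed by 0.15 ± 0.07 and Palb2, the partner of BRCA2, by 0.19 ± 0.09. Rad9a, of the checkpoint clamp, differed by −0.14 ± 0.06, so the list had members on both sides. Shelterin and CST genes, whose products cap and replicate chromosome ends, had a median of 0.08 with 9 of 14 higher, and −0.04 without mTR KO 1. Atrx, a chromatin remodeller of telomeric and repeat DNA, read 9.20, 9.20 and 9.39 in the wild types and 9.64, 9.62 and 9.43 in the knockouts (0.30 ± 0.09), and was the 1 member of this list with an unadjusted p below 0.05. Rif1, a factor at damaged telomeres, read 7.35, 7.29 and 7.55 in the wild types and 8.42, 7.88 and 7.29 in the knockouts (0.47 ± 0.26), and mTR KO 1 and mTR KO 2 lay above the wild types while mTR KO 3 lay at their lower end.

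The measured targets of p53 had no common direction, with 11 higher, 12 lower and a median of −0.00. Trp53 itself, Cdkn1a and Bax were on this list but were not analysed here. Fas, the death receptor, read 7.81, 7.59 and 8.09 in the wild types and 7.18, 7.23 and 7.59 in the knockouts (−0.50 ± 0.16), and its groups did not overlap, although mTR KO 3 and mTR WT 2 both round to 7.59. Perp, a desmosome protein, differed by −0.36 ± 0.15 near background, and Phlda3, an inhibitor of Akt, by −0.20 ± 0.10. Senescence markers and CDK inhibitors had a median of −0.04 with 12 higher and 13 lower. Il1b and Il6, cytokines of the senescence secretome, had an unadjusted p below 0.05 with differences of 0.23 ± 0.09 and 0.36 ± 0.14, Il1b below background in every mTR culture and Il6 in 4 of the 6, all wild types among them. Hgf, a growth factor of the same list, differed by 0.49 ± 0.26.

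Metabolic lists lay on opposite sides. All 18 measured cholesterol synthesis genes, targets of SREBP2, were higher in mTR KO, with a median of 0.20 and 0 of them with an unadjusted p below 0.05. Cyp51 (read 8.29, 7.88 and 7.75 in the wild types and 8.74, 8.21 and 8.19 in the knockouts) and Insig1, the sterol sensor (read 8.85, 8.56 and 8.46 in the wild types and 9.25, 8.97 and 8.68 in the knockouts), showed mTR KO 1 highest in each, with overlap of the rest. Stard4, a sterol carrier, differed by 0.53 ± 0.26. Both groups lay below the mTERT cultures: the median of the list was −0.23 for mTR KO and −0.43 for mTR WT. The median difference was 0.11 without mTR KO 1. The sterol element TCACNCCAC was found in 1 of 14 promoters of this list (7.14%, against 1.44% of all), that of Hmgcs1.

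Genes of fatty acid use were lower in 14 of 18 cases, with a median of −0.11, and Pdk4 was the member with an unadjusted p below 0.05. Cpt1a, which admits fatty acids to mitochondria, differed by −0.34 ± 0.15, Acadl by −0.20 ± 0.10 and Pdk2 by −0.20 ± 0.10. Subunits of oxidative phosphorylation were lower in 21 of 27 cases, by a median of −0.09, with Ndufs6, of complex I, at −0.19 ± 0.07. Cox7a1, a muscle isoform of complex IV, was higher (0.25 ± 0.11). Among NRF2 and antioxidant genes Sod3, the extracellular superoxide dismutase, read 6.92, 6.66 and 6.44 in the wild types and 6.26, 5.96 and 5.82 in the knockouts (−0.66 ± 0.16), with separate groups, while the list's median was −0.07. The unfolded protein response list (median 0.06, Atf3 at 0.40 ± 0.17), immediate early genes (0.10) and Myc targets with ribosome biogenesis genes (0.05) lay near 0. Within the last list Ncl, nucleolin, differed by 0.24 ± 0.07 and Cad, an enzyme of pyrimidine synthesis, by −0.24 ± 0.07.

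Contractile genes of smooth muscle and myofibroblasts, controlled by serum response factor, were lower in all 16 cases (49.7% of all probe sets were lower), with a median of −0.32. 0 of the 16 had an unadjusted p below 0.05. The mean log2 signal over the list stood at 9.99, 9.82 and 9.93 in the wild types and at 9.07, 9.55 and 10.00 in the knockouts. mTR KO 1 and mTR KO 2 lay below the wild types, and mTR KO 3 lay at the wild-type level. Itga8, an integrin, read 10.64, 9.95 and 10.84 in the wild types and 9.74, 9.49 and 10.39 in the knockouts (−0.61 ± 0.29), and Myh11, the smooth muscle myosin, read 9.92, 9.49 and 9.86 in the wild types and 7.65, 8.68 and 9.95 in the knockouts. The median was −0.09 without mTR KO 1. A CArG box, the site of serum response factor, was found in 1 of 12 promoters of the list (8.33%, against 1.81% of all), that of Myl9.

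Pericyte markers were lower in 6 of 8 cases and higher in 2, by up to 0.525. Their median was −0.21, or −0.12 without mTR KO 2. 2 had an unadjusted p below 0.05 (2.9% of all probe sets), and for 4 the groups were separate (6.07% of all). Rgs5, a regulator of G protein signalling, read 7.51, 7.25 and 6.96 in the wild types and 5.38, 5.49 and 6.74 in the knockouts (−1.37 ± 0.35), and Cspg4, the proteoglycan NG2, read 8.57, 8.08 and 8.18 in the wild types and 7.08, 7.61 and 7.90 in the knockouts (−0.74 ± 0.22). The groups did not overlap, but in mTR KO 3 both genes came close to the lowest wild-type culture. Abcc9 and Kcnj8, the subunits of a potassium channel of mural cells, differed by −0.26 ± 0.12 and −0.15 ± 0.07. Abcc9 lay close to background and Kcnj8 below it in every mTR culture.

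Matrix genes were lower more often than higher, 29 against 12 of 41 glycoproteins and elastic fibre genes, with a median of −0.07. 7 had an unadjusted p below 0.05 on the lower side (2.9% of all probe sets) and 0 on the higher side. Smoc2 read 8.78, 8.26 and 8.97 in the wild types and 7.28, 7.40 and 7.73 in the knockouts (−1.20 ± 0.20), and its relative Smoc1 read 8.05, 7.64 and 7.38 in the wild types and 7.13, 7.03 and 7.29 in the knockouts (−0.54 ± 0.17). The groups were separate for both, and the mTERT cultures ranged between 7.07 and 7.82 for Smoc2. Of 21 collagens Col5a2, of fibrillar collagen V, had an unadjusted p below 0.05: it read 12.16, 12.03 and 12.26 in the wild types and 11.93, 11.85 and 11.95 in the knockouts (−0.24 ± 0.08). Col8a2 differed by −0.43 ± 0.19 and Col12a1 by −0.32 ± 0.17, while the collagen list had a median of −0.02.

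Cartilage and bone genes were lower in 18 of 23 cases, 4 of them with an unadjusted p below 0.05 (2.9% of all probe sets), but 11 of the 23 lay below background and the median was −0.05, or −0.13 without mTR WT 3. Col2a1, the main cartilage collagen, read 8.76, 8.18 and 7.62 in the wild types and 7.25, 7.45 and 7.50 in the knockouts (−0.79 ± 0.26), and Col11a1 read 10.22, 9.81 and 9.93 in the wild types and 9.15, 9.23 and 9.81 in the knockouts (−0.59 ± 0.19). For Ibsp, a bone protein, the difference of −0.31 ± 0.13 was carried mainly by mTR WT 1, the 1 culture in which it lay above background. Scx, the transcription factor of tendon progenitors, read 7.97, 7.48 and 7.66 in the wild types and 6.37, 7.08 and 6.83 in the knockouts (−0.94 ± 0.20), and Mkx, a homeobox factor of the same lineage, read 5.99, 5.96 and 5.53 in the wild types and 5.43, 5.27 and 5.25 in the knockouts (−0.51 ± 0.13). The groups did not overlap for either. The 10 tendon genes were split, 4 higher and 6 lower (49.7% of all probe sets were lower), with Dcn, the proteoglycan decorin, at 0.40 ± 0.30. Their median of −0.10 was −0.02 without mTR WT 1 and −0.23 without mTR WT 2.

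Genes at the distal end of the Hox clusters lay lower in mTR KO cultures. Distal Hoxa and Hoxd genes pattern the limb and are kept in fibroblasts as a memory of body position. Of 9 such genes 8 were lower in mTR KO and 1 higher, 5 with an unadjusted p below 0.05 (2.9% of all probe sets), with a median of −0.55. The mean log2 signal over the list stood at 6.43, 6.12 and 6.46 in the wild types and at 5.90, 5.47 and 5.89 in the knockouts. Hoxa9 read 6.33, 6.05 and 6.21 in the wild types and 5.58, 5.79 and 5.82 in the knockouts (−0.47 ± 0.10), Hoxa13 read 6.24, 5.99 and 6.50 in the wild types and 5.76, 5.66 and 5.44 in the knockouts (−0.62 ± 0.14), and Hoxd11 read 6.65, 6.37 and 6.66 in the wild types and 6.14, 5.18 and 6.14 in the knockouts (−0.74 ± 0.26). The 3 wild types lay above the 3 knockouts for each of these. Hoxd13 read 7.95, 8.33 and 8.39 in the wild types and 7.93, 5.44 and 7.01 in the knockouts (−1.43 ± 0.56), where mTR KO 1 nearly reached mTR WT 1 and mTR KO 2 was lowest. Both mTR groups were above the mean of the mTERT groups in the median, by 0.22 for mTR KO and 0.96 for mTR WT. The mTERT groups differed from each other in the other direction, with a median mTERT KO minus mTERT WT of 0.457. Their list mean stood at 4.961, 5.367 and 5.516 in mTERT WT. In mTERT KO it stood at 5.734, 5.935 and 5.715, within or near the range of mTR KO. Leaving out a culture moved the median between −0.75 (without mTR WT 2) and −0.40 (without mTR WT 1).

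Other Hox genes had 12 higher and 16 lower members and a median of −0.05. Hoxd4 read 5.01, 4.85 and 4.71 in the wild types and 5.27, 5.03 and 5.34 in the knockouts (0.36 ± 0.11), higher in mTR KO. Its values in mTR WT 2 and mTR WT 3 lay below background. Hoxa5 differed by −0.63 ± 0.35. Among 48 patterning factors of limb, face and trunk, 20 were higher and 28 lower. Foxc1, a forkhead factor of mesoderm and skull, read 7.91, 7.81 and 7.37 in the wild types and 6.92, 6.69 and 7.10 in the knockouts (−0.79 ± 0.16). Shox2, needed for proximal limb growth, read 7.08, 6.33 and 6.57 in the wild types and 7.46, 7.22 and 7.33 in the knockouts (0.68 ± 0.18). Msx2 differed by −0.38 ± 0.13 and Alx1, a factor of the face, by −1.10 ± 0.44, with mTR WT 3 at 7.77 and mTR WT 2 at 5.86.

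The TGF-beta and BMP list and the Wnt list had single members apart, at shares near those of all probe sets. TGF-beta and BMP genes had 22 of 31 lower and a median of −0.08. Of the 31, 2 had an unadjusted p below 0.05 (5.31% of all probe sets) and 3 had separate groups (11.4% of all). Id3, a direct BMP target, read 8.60, 8.50 and 8.58 in the wild types and 8.11, 8.22 and 8.30 in the knockouts (−0.35 ± 0.08), and Tgfb2, a ligand, read 8.97, 8.93 and 9.07 in the wild types and 7.75, 8.39 and 8.91 in the knockouts (−0.64 ± 0.26), both with separate groups. Tgfbr3, the betaglycan co-receptor, lay on the other side (0.99 ± 0.48), at 8.04 in mTR KO 1 and at most 6.58 in the other 5 cultures. Wnt genes had 29 of 44 lower, with the ligand Wnt9a at −0.41 ± 0.11 and the secreted modulator Dkk3 at −0.69 ± 0.22. Of the 44, 2 had an unadjusted p below 0.05 (5.31% of all probe sets). Groups were separate for 2 higher members (5.33% of all) and 3 lower ones (6.07% of all). Wnt4 differed by 0.18 ± 0.08 in the other direction, with separate groups.

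FGF signalling genes lay on both sides. The receptor Fgfr2 and the intracellular Fgf13 (−0.39 ± 0.12) were lower, and the feedback inhibitors Spry1 and Spry2 were higher. Spry1 read 7.23, 7.44 and 6.93 in the wild types and 7.64, 7.42 and 7.69 in the knockouts (0.38 ± 0.14), and Spry2 read 7.96, 8.23 and 7.52 in the wild types and 8.29, 8.47 and 8.32 in the knockouts (0.46 ± 0.17). Other feedback inhibitors of the list are not given here. The 22 members had 12 higher and 10 lower values and a median of 0.04. For Spry1, mTR KO 2 lay just below mTR WT 2, so the groups overlapped, while for Spry2 they did not. Of 8 aryl hydrocarbon receptor genes Ahrr alone had an unadjusted p below 0.05: it read 5.17, 5.26 and 5.46 in the wild types and 4.88, 4.58 and 4.58 in the knockouts (−0.62 ± 0.12), and its 3 knockout values were below background. The other anoctamins did not follow Ano1: Ano10 differed by −0.18 ± 0.11 and Ano7 by 0.18 ± 0.09 below background, and the 9 measured members had a median of −0.03.

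Markers of other cell types varied from culture to culture. Cdh19, a cadherin of Schwann cell precursors, read 4.87, 6.77 and 4.55 in the wild types and 6.64, 6.04 and 6.28 in the knockouts, and lay between 4.29 and 4.35 in mTERT cultures. It was thus high in the 3 knockouts and in mTR WT 2 and low in the remaining wild types and all mTERT cultures (0.92 ± 0.54). L1cam, a neural adhesion molecule, read 5.38, 6.16 and 5.07 in the wild types and 6.08, 5.65 and 5.84 in the knockouts and had the same 4 cultures highest. Stmn2, of neurons, read 5.69, 6.76 and 7.55 in the wild types and 6.14, 6.69 and 5.12 in the knockouts (−0.68 ± 0.54), with no such split. 13 of 16 neural and Schwann markers lay above background, with a mean of 5.59, 6.21 and 5.57 in the wild types and 5.86, 5.91 and 5.85 in the knockouts. Whether these traces move with any gene above was not tested.

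Sftpc, the surfactant protein of lung epithelium, read 9.17 in mTR WT 1 and between 4.07 and 4.33 in the other 5 mTR cultures. Of 15 epithelial markers, 8 lay above background, and Spint2, a protease inhibitor, read 6.60, 6.47 and 6.67 in the wild types and 5.71, 5.83 and 6.24 in the knockouts (−0.65 ± 0.14), with separate groups. Endothelial markers lay above background in 4 of 14 cases. Erg, a factor of endothelium and cartilage, read 5.88, 5.57 and 5.94 in the wild types and 5.46, 4.72 and 5.09 in the knockouts (−0.71 ± 0.19), again with separate groups, while the 14 had a median of 0.03. Skeletal muscle markers had 10 of 20 above background and a median of −0.03, with Pax7, of satellite cells, at −0.43 ± 0.18. Of the adipocyte markers Fabp4, a fatty acid binding protein, read 6.43, 5.85 and 5.92 in the wild types and 5.81, 5.26 and 5.53 in the knockouts (−0.53 ± 0.19), and the list's median was 0.05.

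Of the 12 genes of largest spread over the 6 cultures, 1, Col10a1, had separate groups. The others given here are described by level, since they were chosen for their spread. mTR KO 1 was the highest culture for Sfrp2, a secreted Wnt modulator, at 8.79, for Egfl6, a matrix protein, at 8.11, for Agtr2, the angiotensin II type 2 receptor, at 8.95, and for Cxcl15, a chemokine, at 8.23. The other 5 cultures were at most 6.42 for Sfrp2 and 6.48 for Agtr2. Acan, the cartilage proteoglycan aggrecan, read 7.25, 4.51 and 7.75 in the wild types and 5.08, 6.96 and 4.73 in the knockouts, high in 2 wild types and 1 knockout. Lcn2, an acute-phase protein, read 5.68, 8.27 and 5.36 in the wild types and 5.88, 7.69 and 4.49 in the knockouts, highest in mTR WT 2 and mTR KO 2, and Tnn, tenascin N, read 8.29, 8.08 and 10.56 in the wild types and 10.33, 7.01 and 8.56 in the knockouts, highest in mTR WT 3 and mTR KO 1.

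**Figure D4:**
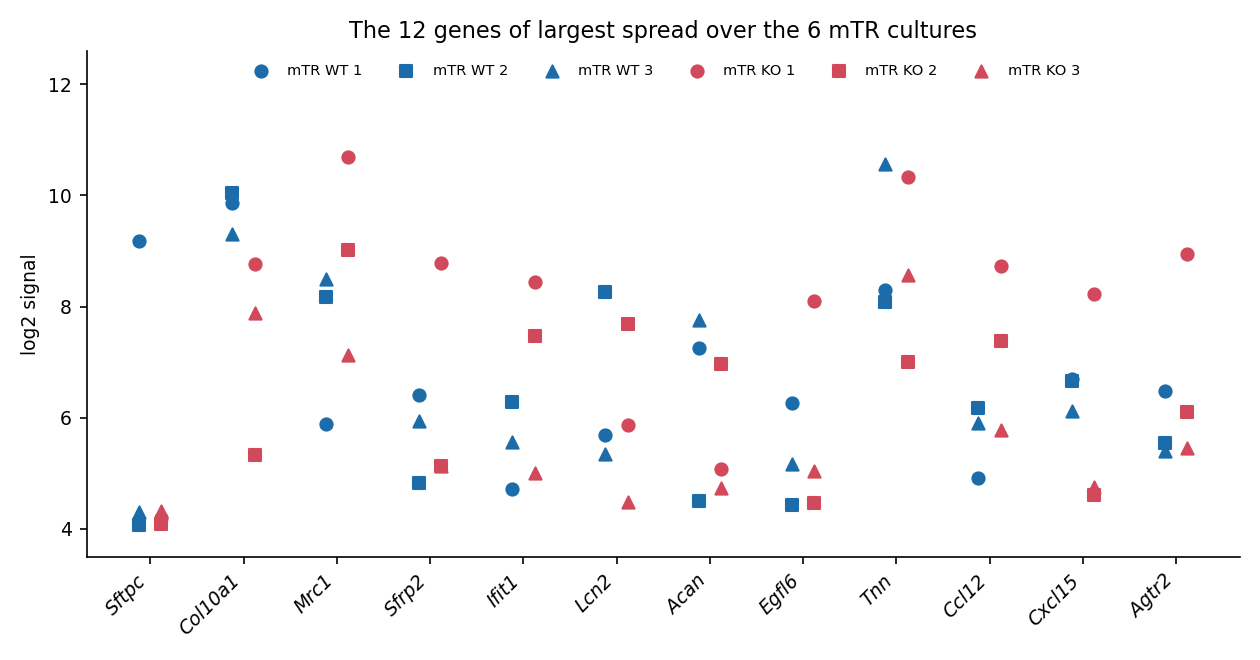
Log2 signal of the 12 genes with the largest standard deviation over the 6 mTR cultures, with 1 point per culture. mTR KO 1 is highest for Sfrp2, Egfl6, Agtr2, Cxcl15, Ccl12, Ifit1 and Mrc1, and Sftpc is high in mTR WT 1 only.

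The imprinted region between Dlk1 and Dio3 on chromosome 12 stood out when the values were inspected, and its members were chosen after that. Its maternally expressed long RNAs Meg3 and Rian are hosts of a large microRNA cluster, while Dlk1 and Dio3 are expressed from the paternal chromosome. Of 103 genes that RefSeq lists there, 48 were measured and 36 lay above background; 41 were higher and 7 lower in mTR KO, 13 had an unadjusted p below 0.05 (5.31% of all probe sets) and 15 had separate groups with mTR KO higher (5.33% of all), 0 with mTR KO lower. Meg3 read 9.46, 9.65 and 9.10 in the wild types and 9.80, 10.07 and 9.67 in the knockouts (0.44 ± 0.16), Rian read 7.51, 7.83 and 7.29 in the wild types and 7.87, 7.89 and 8.02 in the knockouts (0.38 ± 0.14), and Mir679 read 6.57, 6.57 and 6.05 in the wild types and 6.98, 7.15 and 6.86 in the knockouts (0.60 ± 0.15). In each the 3 knockouts lay above the 3 wild types, and mTR WT 3 was the lowest culture. Mir329 read 6.08, 6.10 and 5.34 in the wild types and 6.39, 6.66 and 6.25 in the knockouts (0.59 ± 0.22), and Mir380 differed by 0.52 ± 0.16. Dio3 itself read 6.64 in mTR KO 1 and at most 4.64 in the other mTR cultures, and Rtl1 differed by −0.18 ± 0.10.

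The median of the 48 was 0.18, and it was 0.11 without mTR WT 3 and 0.22 without mTR WT 2. Against the mTERT cultures it was 0.04 for mTR KO and −0.14 for mTR WT. These probe sets share long transcripts and so are not independent, and the group has no test of its own. Mature microRNAs of the members with the largest differences are shown from RefSeq (GRCm38.p6), with the seed in capitals. The 23 mature sequences looked up for the region carry 23 different seeds.
mmu-miR-679-5p (chr12:109715587-109715608, plus strand): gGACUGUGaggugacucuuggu
mmu-miR-679-3p (chr12:109715624-109715645, plus strand): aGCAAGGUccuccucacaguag
mmu-miR-329-5p (chr12:109713503-109713524, plus strand): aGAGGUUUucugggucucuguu
mmu-miR-329-3p (chr12:109713541-109713562, plus strand): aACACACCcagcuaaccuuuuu
mmu-miR-380-5p (chr12:109711806-109711827, plus strand): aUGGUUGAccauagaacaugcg
mmu-miR-380-3p (chr12:109711842-109711863, plus strand): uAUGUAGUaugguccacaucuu

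**Figure D5:**
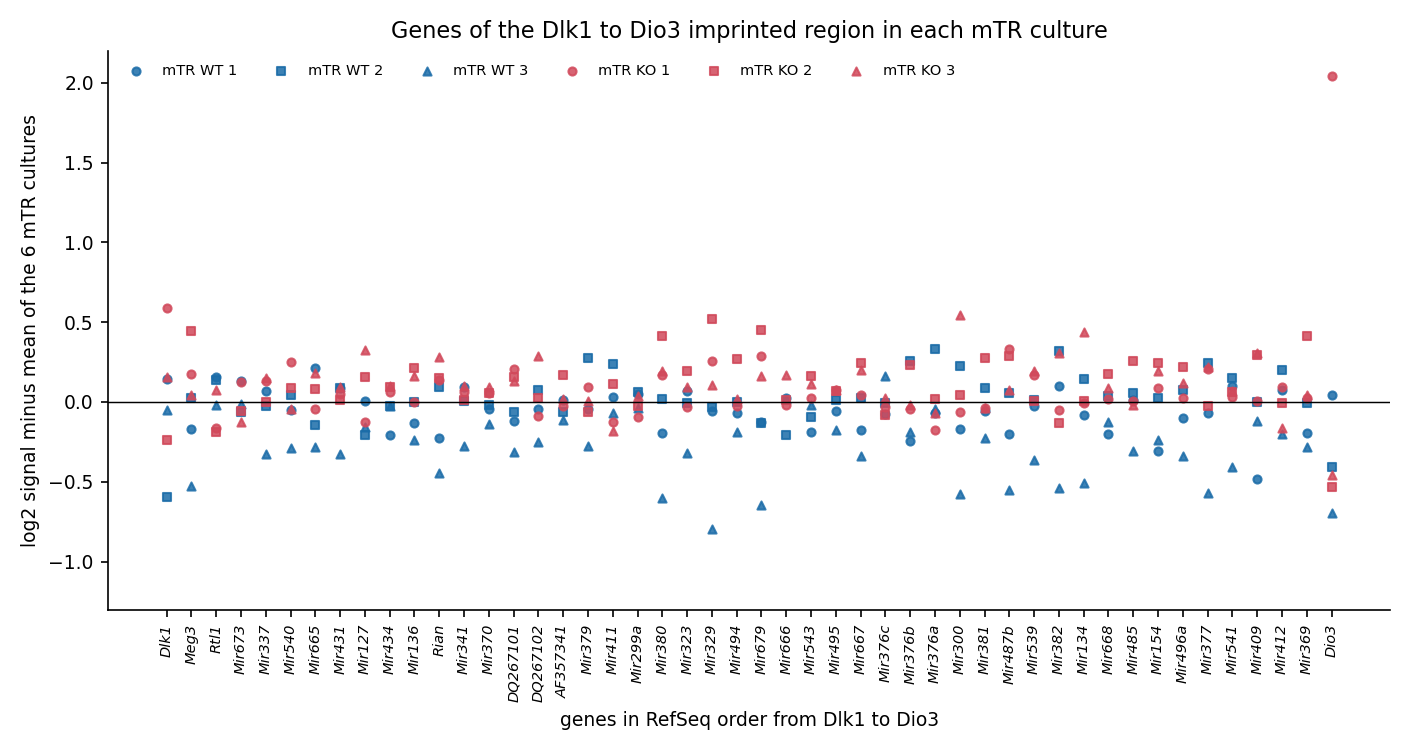
Deviation of each measured gene of the Dlk1 to Dio3 region from its mean over the 6 mTR cultures, in log2 units, with genes in RefSeq order on the horizontal axis and 1 point per culture. mTR WT 3 lies lowest, with a median of −0.28, and the 3 knockouts have medians of 0.03, 0.09 and 0.10. The median of mTR WT 2 is 0.02, beside that of mTR KO 1.

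The chromosomal neighbours of Terc were taken as the 10 genes on either side in RefSeq order. Of these 20 genes 14 were measured, 8 higher and 6 lower in mTR KO, 0 with an unadjusted p below 0.05, and the median was 0.01. The widest difference was that of Fcgr1 (0.69 ± 0.46), which is also one of the macrophage markers and followed their order of cultures.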

How the data were processed

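Gene expression was measured on Affymetrix Mouse Gene ST arrays, and the authors deposited log2 values for 28853 probe sets. The submitters' processing notes name GCOS 1.4, PLIER and Affymetrix Expression Console but not what each was used for. Normalization and genome build are not given in the sources used here. Quantiles of the 6 mTR arrays differed by at most 0.076, and the values were used as they stood.

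Groups followed the sample titles, and no array was left out. The main test was limma 3.58.1 in R 4.3.3 on the 6 mTR arrays, with 2 group means, eBayes (4 residual and 3.11 prior degrees of freedom) and Benjamini-Hochberg adjustment over all probe sets at 5%. A second fit of all 12 arrays with 4 group means (8 residual, 3.14 prior) set each mTR group against the mean of the mTERT groups. Both fits were tested on simulated data with 200 changed probe sets and noise independent between probe sets. In the mTR comparison, 32.8%, 77.6% and 95.5% of log2 changes of 0.5, 1 and 2 were recovered, with 11 false calls. Such noise leaves out that whole lists moved together with single cultures, so these shares need not hold for the data. The number of arrays limits the precision.

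The platform annotation gave 1 symbol for 21789 probe sets, several for 1621 and none for 5443; 21698 of the first had a gene ID in the RefSeq table (GRCm38.p6), and 0 symbols changed. For each gene the probe set with the highest mean over 12 arrays was used. Of 907 list entries 848 were measured, and 59 were not analysed here. The comparison, the 42 gene lists and the rules for named genes were chosen with earlier results of these data known. Named were Terc and Tert, the 15 genes at each end of the moderated t ranking, the 10 largest differences on each side with separate groups, the 8 genes standing farthest apart from all 9 other arrays on each side of each group, up to 4 members per list by unadjusted p, and the 12 of largest spread, all above background except list members. The genes called in mTR WT cultures and those of the Dlk1 to Dio3 region were added after their values were seen. Promoters (250 bases before to 50 after a start) and mature microRNAs came from RefSeq tables.

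Same-numbered mTR cultures correlated at −0.156, 0.289 and −0.377 in their deviations from the group means over 14426 brighter probe sets. Of the differently numbered cultures, mTR KO 1 correlated with mTR WT 3 at 0.372 and mTR KO 3 with mTR WT 1 at 0.319. The numbers were therefore not taken as pairs. No label used here says whether the better correlated cultures share a litter, and no pairing of them was fitted. Alternatives were the replicate number as a block, quantile normalization, median centring, the brighter probe sets alone, array weights, a trended and robust variance, probe sets of 1 gene, all 12 arrays in the fit, and each array left out in turn. Python 3.11.15 with matplotlib 3.10.9 made the figures.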

Additional observations from a re-analysis of the deposited data

How the results depend on the processing

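In the mTR comparison 0 probe sets passed the limma test under all alternatives run. The count with an unadjusted p below 0.05 was 801 for the brighter probe sets, 3287 with array weights (1531 in the fit as reported), and 890 to 2747 with a culture left out. Probe sets with separate groups numbered 1704 for the brighter probe sets and 5279 to 7716 with a culture left out, where fewer values per group are compared. With the replicate number as a block, which is not supported as a pairing, 0 probe sets passed and 1401 had an unadjusted p below 0.05. The block could not be fitted for either mTR group against the mTERT cultures, and it left 0 calls for the difference of the knockout effects. mTR WT against the mTERT cultures gave 0 to 26 calls with a culture left out, and mTR KO gave 0 to 7. Of 3016 alternatives for 220 named genes all kept their direction except Sftpc (0.02 without mTR WT 1) and Slc4a1 (−0.02 without mTR KO 3). A kept direction says little. The choices of variance, block, arrays in the fit and probe sets leave a difference of group means unchanged. Leaving out a culture cannot turn a gene with separate groups. Sizes could still move: the Mrc1 difference ran from 0.55 to 2.33 with a culture left out. Of 585 alternatives for 42 list medians 567 moved by less than the spread between cultures and 18 by more; the cause was not tested. With a culture left out, 22 of the 42 list medians changed sign for at least 1 culture (their medians as reported lay between −0.05 and 0.15), and 40 changed sign or moved by over 1.5 times. Genes below background, Terc among them, have no level to compare.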

Other observations

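Genes of retinoic acid metabolism and response were chosen as a group after their values were seen, so the counts are a description with no test. Of 17 genes 16 were measured, 4 higher and 12 lower in mTR KO, 4 of them with an unadjusted p below 0.05 (5.31% of all probe sets), and the median difference was −0.19. Aldh1a3, which makes retinoic acid, read 7.14, 7.94 and 7.38 in mTR WT cultures and 6.33, 6.47 and 6.81 in mTR KO cultures, a difference of −0.95 ± 0.22. Cyp26b1, which degrades it, read 6.42, 6.41 and 6.31 in mTR WT cultures and 5.87, 5.73 and 5.88 in mTR KO cultures. Dhrs3, a retinal reductase, differed by −0.30 ± 0.12, and Crabp1, a retinoic acid binding protein, was higher in mTR KO. Aldh1a3 and Cyp26b1 thus lay on the same side. Of the other synthesising enzymes, Aldh1a1 differed by −1.10 ± 0.66 and Aldh1a2 by −0.17 ± 0.19, both with overlapping groups. The degrading enzymes Cyp26a1 and Cyp26c1 lay below background on average. Leaving out a culture moved the median between −0.26 (without mTR WT 3) and −0.15 (without mTR KO 2).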
